A study of Gallus gallus with 20 samples.

Results

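Non-keratin genes of the chicken scutate scale whose transcripts were lower in feather and in scales pushed towards feather were drawn from a table of 20 libraries. A gene was a member when its mean in control scales was at least 5 RPKM after scaling, when its mean plus 1 in control scales was at least 4 times that in feather, and when it was at least 2 times that in scales given retinoic acid and in scales misexpressing Sox18. The scaling divided each library by its sum over the rows with Ensembl identifiers, so that the large keratin share of some libraries did not lower the other genes, and all levels below are such scaled RPKM, reads per gene length and library size. The rule kept 45 of the 16110 rows with Ensembl identifiers, 6846 of which reached 5 in the control mean. Neither the files nor the reference gene table pair these identifiers with gene names (0 matched), so members carry numbers, from member 1 with the highest mean in control scales to member 45 with the lowest, and only 4 identifiers are printed. Their roles are therefore unknown here, and "non-keratin" means only that a row carries no keratin name.

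Tissue came from White Leghorn chicken embryos on embryonic day 16. Control scales carried the green fluorescent protein in RCAS, an avian retroviral vector (GFP, n = 2). RCAS also delivered Sox18 (n = 3), beta-catenin (n = 2), Grem1 (n = 2), Spry2 (n = 2), Sox2 (n = 2) and Zic1-deltaC, a construct (n = 3), by virus on embryonic day 3 or as plasmid with electroporation. Other scales came from embryos given retinoic acid (RA) on embryonic day 9 (n = 2), with no vehicle control among the groups, and feather was dorsal skin (n = 2). The labels give no virus for RA and feather, so both also differ from GFP in infection, and feather differs in body site. The labels do not tie replicates to different embryos, so spreads and p-values concern these libraries and may be technical. In bulk tissue fewer cells of a type and less RNA per cell cannot be told apart.

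Scutate scales cover the front of the avian foot as large plates whose hard outer face is built from beta-keratins. Feathers and scales both arise from epidermal placodes that exchange signals with the dermis beneath, and RA, Wnt signalling through beta-catenin, and transcription factors of the Sox family are known to turn scale primordia towards feather-like growth. Grem1 is a secreted antagonist of bone morphogenetic proteins, Spry2 dampens signals from receptor tyrosine kinases such as those for fibroblast growth factors, and Sox2 and Sox18 are transcription factors.

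The first GFP library stood apart and set most of the membership. Of the 45 members, 24 were more than 4 times higher in GFP replicate 1 than in any of the other 19 libraries, GFP replicate 2 included, in RPKM as deposited. After scaling this held for all but member 23, at 23.1 in GFP replicate 1 and at most 6.07 elsewhere. Their median level was 27.3 in GFP replicate 1 and 0.14 in GFP replicate 2, and the ratio between both libraries, each plus 1, ran from 4.12 to 121. GFP replicate 1 held 88 such rows at 1 RPKM or more as deposited, against 0 to 2 in each other library. All 24 of the 88 rows that reached 5 in the GFP mean became members. This is largely built in, since a row so high in GFP replicate 1 nearly always meets the 2-fold thresholds for RA and Sox18. Among all 6846 rows at 5 or more in GFP, only 37 (0.54%) differed 2-fold or more between the GFP libraries, and 28 of these 37 were members.

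With GFP replicate 2 alone as the control, 12 of the 45 members met the rule, and with GFP replicate 1 alone 41 did. Both libraries alone kept 8 members (6, 8, 14, 21, 27, 30, 31 and 40), and another 4 (13, 19, 38 and 41) needed GFP replicate 2. The label of a gene set lost with conversion thus rests on GFP replicate 1 for 33 members, which meet the rule only through it. For the 24 that stood out in that library, GFP replicate 2 does not bear the label out. All of them were below the minimum of 5 there (median 0.14, highest 4.85), so for most of them that library can hardly show a loss. Of the 21 members outside the 24, 20 were at 1/2 of GFP replicate 2 or less in feather, 18 in Sox18 and 14 in RA. The account below keeps 3 sets apart, the 24 members of GFP replicate 1, the 12 that hold with GFP replicate 2 alone, and the 9 in between (2, 5, 17, 20, 25, 34, 35, 36 and 43).

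**Figure D1:**
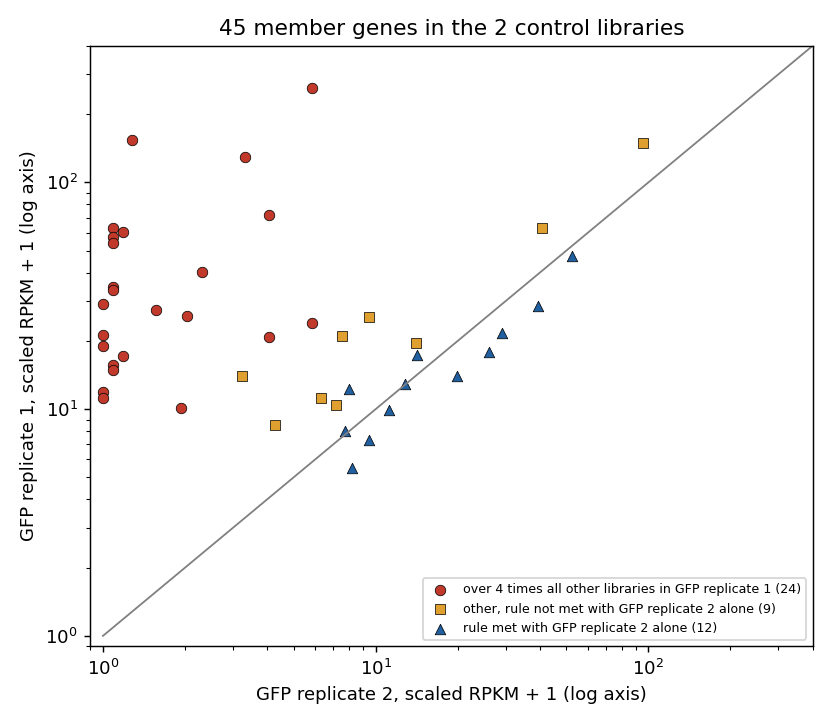
Level of each member in GFP replicate 2 (x axis) and GFP replicate 1 (y axis), as scaled RPKM plus 1 on log axes, with 1 point per member and the line of equal levels in grey. The 24 red points lie far above the line with at most 4.85 in GFP replicate 2, and the 12 blue points lie near it.

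Member 1 shows how 1 library decided the choice. Its level was 260 in GFP replicate 1 and 4.85 in GFP replicate 2. In Sox18 scales it stood at 51.0, 38.1 and 38.9, in RA scales at 23.8 and 18.1, and in feather at 4.72 and 4.54. All 5 Sox18 and RA libraries were therefore above GFP replicate 2 and below GFP replicate 1. Member 7 followed with 70.7 and 3.08 in GFP, between 8.75 and 9.41 in Sox18, and 3.73 and 2.04 in RA. In all, 15 of the 24 had a Sox18 mean above GFP replicate 2, and 7 had an RA mean above it.

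Many of the 24 were close to unmeasured elsewhere. Member 3 was at 153 in GFP replicate 1, at 0.28 in GFP replicate 2 and below 0.7 in every other library. For 12 of the 24 every library but GFP replicate 1 was below 1 RPKM as deposited. The 24 together summed to 1184 in GFP replicate 1, to 23.3 in GFP replicate 2 and to between 8.35 and 71.6 in the other 18 libraries, with the highest sums in Sox18 (57.1 to 71.6). In sum the second control library was thus above feather (8.35 and 8.38) and below every RA (40.2 and 31.6) and Sox18 library. Member 1 weighs heavily in this order. It alone made up 23.8 and 18.1 of the RA sums and 51.0, 38.1 and 38.9 of the Sox18 sums, against 4.85 in GFP replicate 2. By count, only 7 of the 24 had an RA mean above GFP replicate 2, and 15 a Sox18 mean above it. The order in sum therefore does not describe the 24 as a set. A statement on loss of these 24 in converted scales rests on GFP replicate 1 alone.

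The 12 members that hold with GFP replicate 2 alone were measured at similar levels in both controls, from 4.49 to 46.2 in GFP replicate 1 and from 6.71 to 51.5 in GFP replicate 2. Members were chosen by their levels in GFP, feather, RA and Sox18, so what follows for these groups is a description with no test. Member 6, the highest of the 12, stood at 46.2 and 51.5 in GFP. It was at 0.32 and 0.28 in feather, at 11.3 and 10.2 in RA, and at 18.0, 18.9 and 29.4 in Sox18. Feather was far below all others, and RA was below every Sox18 library. Member 14 ran from 16.8 and 25 in GFP to 0 and 0.14 in feather, 3.50 and 3.72 in RA, and 1.07, 1.06 and 1.70 in Sox18, with the lowest Sox18 share of GFP among the 12.

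Member 30 was at 8.89 and 10.2 in GFP, at 0 and 0.14 in feather, at 3.26 and 2.76 in RA and between 3.10 and 4.89 in Sox18. Member 31 was listed at 0 in both feather libraries, against 11.2 and 6.99 in GFP, 2.21 and 1.32 in RA, and between 2.34 and 3.30 in Sox18. Both were almost absent from dorsal skin and kept a low level in RA and Sox18 scales. Member 27 had the closest pair of controls, 11.9 and 11.8, with 0.47 and 0.71 in feather, 5.24 and 5.40 in RA, and 4.59 to 6.0 in Sox18. Member 8 kept a clear feather level, 4.09 and 3.55 against 27.4 and 38.5 in GFP, and lay between 10.6 and 12.9 in the 5 RA and Sox18 libraries.

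RA and Sox18 scales thus held intermediate levels. Against GFP replicate 2, each value plus 1, the 12 members had a median of 12.2% in feather, 36.5% in RA and 32.1% in Sox18, where all 6879 rows at 5 or more in that library had medians of 70.9%, 98.6% and 95.8%. Both RA libraries were above both feather libraries in 12 of 12 members, and all Sox18 libraries were above both feather libraries in 11 of 12. The rule asked for a 4-fold difference in feather and a 2-fold one in RA and Sox18, so part of this order is built in. Between RA and Sox18 no single order held, since all Sox18 libraries were below both RA libraries in 5 members and above both in 2. How many of all rows show such orders was not counted, so these counts describe the 12 members only. Over all rows at 5 or more in the GFP mean, 6.98% met the feather threshold, 1.21% the RA threshold and 3.05% the Sox18 threshold, and by choice 45 of 45 members met each.

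The 9 members in between were present in both controls but higher in GFP replicate 1. Member 2, the most abundant gene outside the 24, stood at 148 and 94.9 in GFP, at 1.42 and 0.71 in feather, at 47.9 and 50.5 in RA, and between 40.5 and 46.0 in Sox18. Against GFP replicate 2 alone its RA and Sox18 levels were close to 1/2, on both sides of the threshold. Member 5 was at 62.0 and 39.7 in GFP, 24.5 and 25.2 in RA, 10.4 to 13.3 in Sox18 and below 1 in feather. Member 36 depended on GFP replicate 1 almost as much as the 24, with 13.0 against 2.24. Members 20 and 21 had similar profiles, with ratios of 0.93 to 2.22 between them across the 20 libraries, and whether they share reads was not tested.

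Values near the thresholds were dense for RA and sparse for feather. The members nearest to the GFP minimum had means of 5.05, 5.12 and 5.41, and the rows just below it 4.76, 4.67 and 4.59. The closest feather folds were 4.14, 4.18 and 4.42 inside and 3.89, 3.65 and 3.12 outside. For RA they were 2.01, 2.03 and 2.15 inside and 1.98, 1.96 and 1.95 outside, and 105 rows failed this criterion alone. For Sox18 they were 2.09, 2.14 and 2.15 inside and 1.89, 1.80 and 1.72 outside, with 22 rows failing it alone, and 4 rows failed the feather criterion alone.

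**Figure D2:**
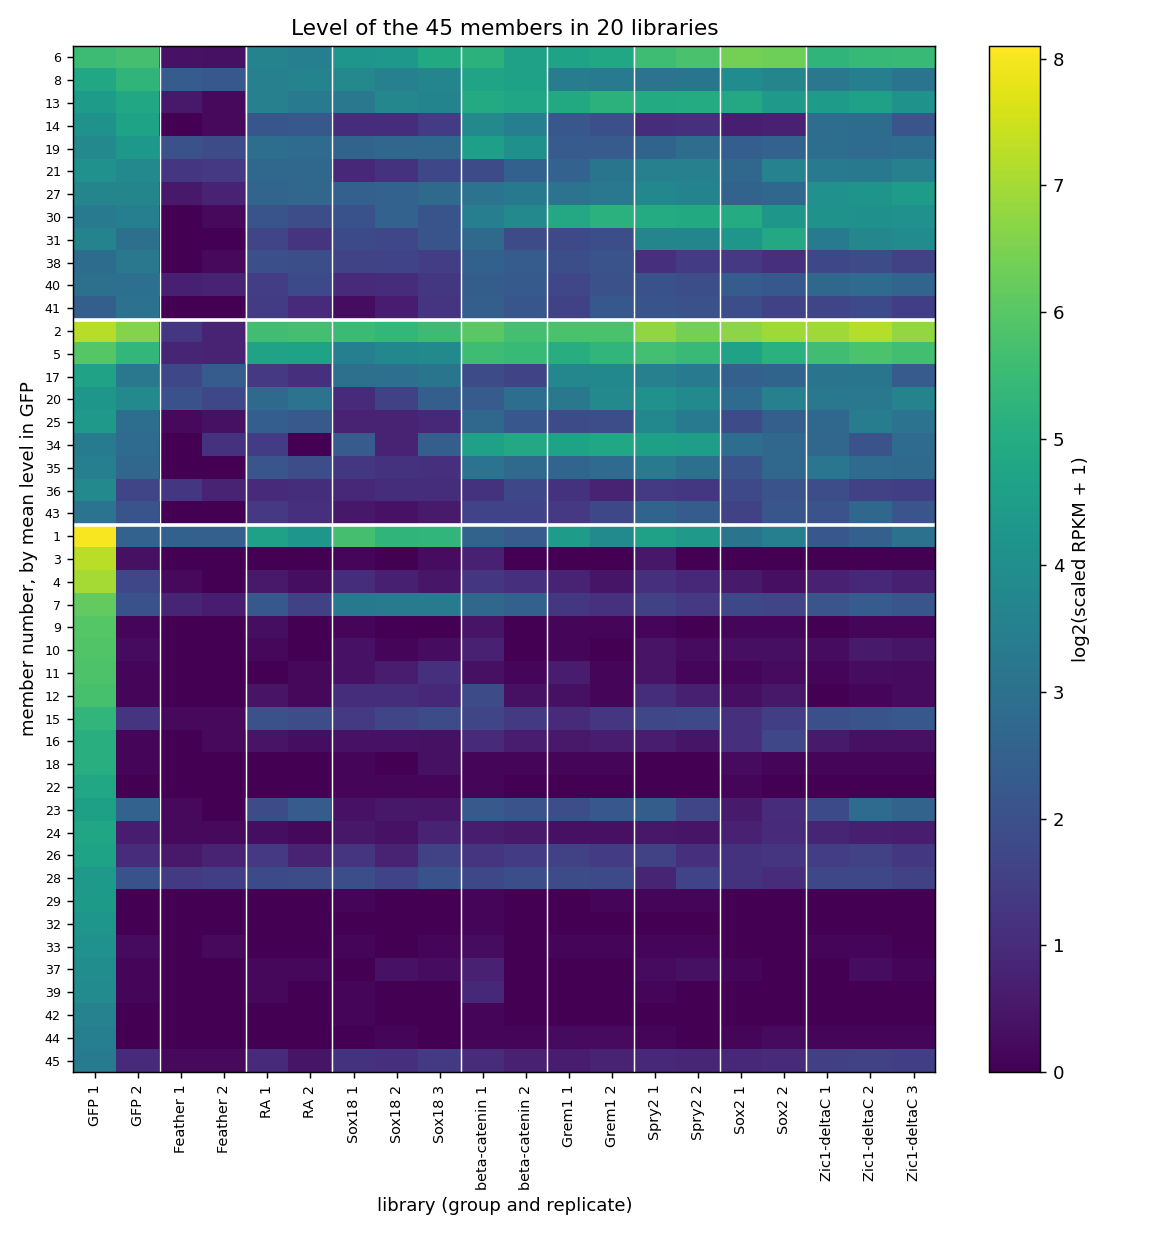
Level of each member (rows, by member number) in each of the 20 libraries (columns), coloured by log2(scaled RPKM + 1). White lines part the 12 members that hold with GFP replicate 2 alone (top), the 9 in between and the 24 of GFP replicate 1 (bottom), where the first column is bright and the GFP replicate 2 column is dark.

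The other 5 misexpression groups took no part in the rule. Against GFP their values are still a description, since the GFP libraries chose the members. With both GFP libraries, 31 of 45 members were at 1/2 of GFP or less in beta-catenin scales, 35 in Grem1, 29 in Spry2, 33 in Sox2 and 31 in Zic1-deltaC, beside 1.12%, 1.74%, 1.48%, 4.27% and 1.26% of all rows at 5 or more in GFP. All 24 members of GFP replicate 1 are in each of these counts, and so is member 36. For the 24 this is largely built in, since each was more than 4 times higher in that library than in any other. Without GFP replicate 1 the same counts over the 45 were 4, 9, 4, 8 and 5. At 2 times GFP or more stood 1 member in beta-catenin (0.643% of all rows), 2 in Grem1 (1.04%), 2 in Spry2 (0.657%), 2 in Sox2 (1.64%) and 0 in Zic1-deltaC (0.599%). These were members 30, 31 and 34.

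For the 12 members against GFP replicate 2, the number at 1/2 or less was 2 in beta-catenin, 7 in Grem1, 4 in Spry2, 6 in Sox2 and 5 in Zic1-deltaC, beside 0.698%, 1.5%, 1.37%, 4.30% and 1.0% of all rows at 5 or more in that library. Their median share of the control was 65.5% in beta-catenin, 47.2% in Grem1, 66.3% in Spry2, 56.7% in Sox2 and 73.9% in Zic1-deltaC, all above the RA and Sox18 medians. The rule held each RA and Sox18 share at 1/2 or less and set no limit on these groups, so this order is in part built in. The medians of all rows were between 96.7% and 110%. These 12 were chosen as high in that same library, so the lower shares are in part a result of the choice. The spread among members was wide, from 6.30% (member 14 in Sox2) to 309% (member 31 in Sox2).

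**Figure D3:**
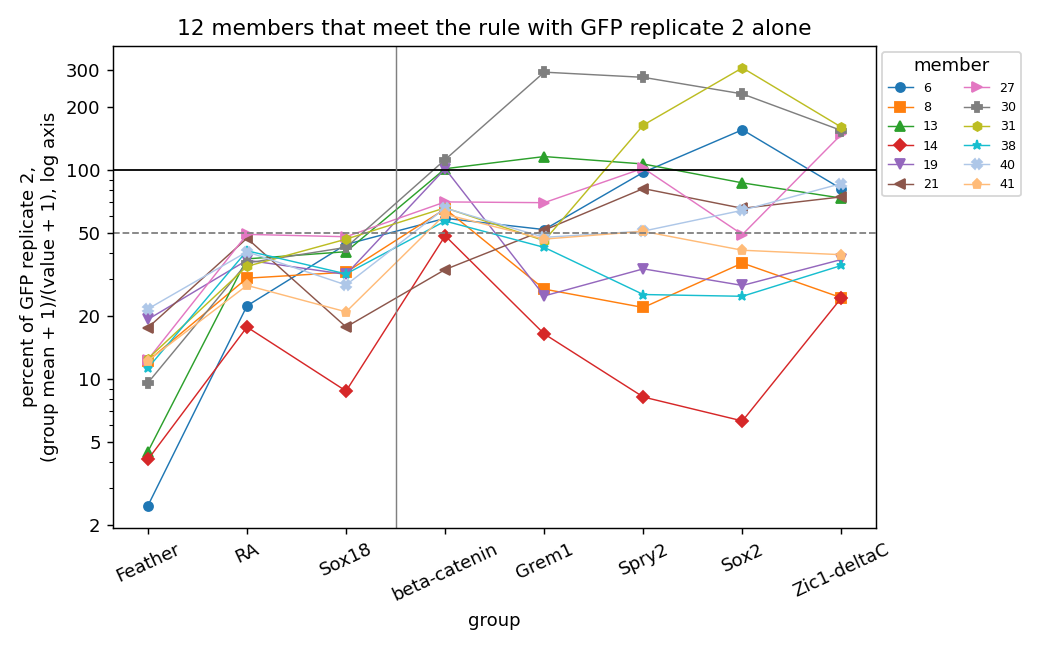
Mean of each group as a percent of GFP replicate 2, each plus 1 scaled RPKM (y axis, log scale), for the 12 members that meet the rule with that library alone. The solid line marks 100% and the dashed line 50%, and groups left of the grey vertical line were used by the rule. To the right of it members spread from 6.30% to 309%.

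Tests were run only among the 5 groups that the rule did not use, as each group against the mean of the other 4, with limma on log2(scaled RPKM + 1) in those 11 libraries and Benjamini-Hochberg adjustment over all 11863 rows tested. Of the 45 members 33 passed the filter of 1 RPKM in at least 2 of the 20 libraries, and the 12 that failed it were among the 24 of GFP replicate 1. Because the filter counts the GFP libraries, where members were chosen as high, members 11 and 24 passed it only through GFP replicate 1. A difference of any kind among the 5 groups was called in 28 of 45 members, or 28 of the 33 tested (84.8%), beside 85.8% of all rows tested. Higher calls came to 8 members in beta-catenin (14.2% of all rows), 5 in Grem1 (13.6%), 8 in Spry2 (18.0%), 6 in Sox2 (44.7%) and 12 in Zic1-deltaC (31.6%). Lower calls came to 9 in beta-catenin (37.3%), 14 in Grem1 (33.8%), 5 in Spry2 (13.5%), 12 in Sox2 (17.5%) and 6 in Zic1-deltaC (19.4%). As shares of the 33 tested members, the furthest from all rows were Sox2, with 18.2% higher and 36.4% lower, and beta-catenin, with 24.2% higher and 27.3% lower. The distance in Sox2 depended on the scaling. Over all rows 5298 were called higher and 2079 lower in Sox2 here, against 2868 and 3340 with median-ratio scaling. The members called were then 5 higher and 15 lower. With the filter set on the 11 fitted libraries, an alternative chosen after the data were seen, members 11 and 24 dropped out, 27 of 31 members were called, lower calls in Grem1 became 13 and higher calls in Sox2 became 5. The shares describe members that passed a filter and say nothing particular to them.

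The 16 rows that meet the rule without GFP replicate 1, the 12 members among them, had 14 calls of any difference, with 8 higher and 5 lower in beta-catenin, 3 and 7 in Grem1, 3 and 6 in Spry2, 2 and 5 in Sox2, and 4 and 3 in Zic1-deltaC. All 16 were tested, so that 50% were called higher in beta-catenin beside 14.2% of all rows, and 37.5% lower in Spry2 beside 13.5%. The shares in the same order of groups were otherwise 31.2% lower in beta-catenin, 18.8% and 43.8% in Grem1, 18.8% higher in Spry2, 12.5% and 31.2% in Sox2, and 25% and 18.8% in Zic1-deltaC, beside the shares of all rows given above. Leaving out 1 library of the group moved several counts over the 45 members by more than 1.5 times. Higher calls in Spry2 were 3 without Spry2 replicate 1 and 4 without replicate 2, and in Grem1 3 without either replicate. Lower calls in Grem1 were 7 without Grem1 replicate 1 and 9 without replicate 2. In Zic1-deltaC higher calls were 7 without replicate 2 and lower calls 3 without replicate 3. The share of all rows called in each of these smaller fits was not counted, so the moves show nothing particular to the members.

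The log2 difference of the median row was -0.11 in beta-catenin, -0.10 in Grem1, 0.03 in Spry2, 0.15 in Sox2 and 0.05 in Zic1-deltaC, and the differences of single members below stand beside these shifts. The share of higher among all calls depended on the scaling. It was 27.5% in beta-catenin, 28.7% in Grem1, 57.2% in Spry2, 71.8% in Sox2 and 62.0% in Zic1-deltaC here. Median-ratio scaling gave 51.2%, 54.0%, 50.2%, 46.2% and 50.8%. The RPKM as deposited gave 19.9%, 24.5%, 64.5%, 82.3% and 46.9%. No called difference of the 21 members outside the 24 changed its sign under any alternative.

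**Figure D4:**
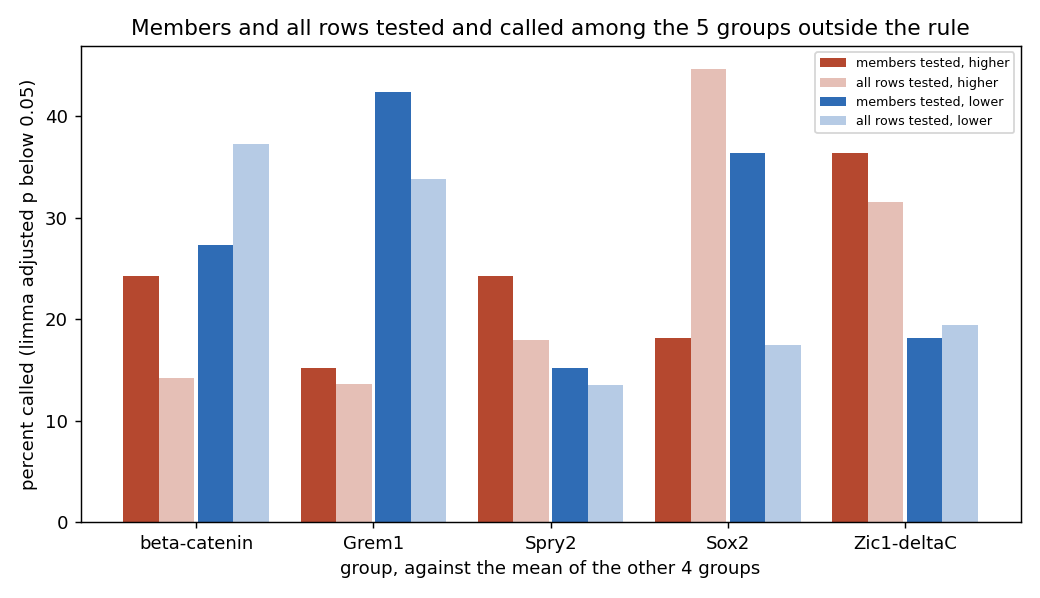
Percent of the 33 members tested (dark bars) and of all rows tested (pale bars) called higher (red) or lower (blue) in each group against the mean of the other 4 groups, by limma at an adjusted p below 0.05. The members' bars lie furthest above the pale ones for lower calls in Sox2 (36.4% beside 17.5%) and furthest below them for higher calls in Sox2 (18.2% beside 44.7%). The pale bars in Sox2 depend on the scaling.

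A first kind of member was kept best in beta-catenin scales. Member 14 (ENSGALG00000013600) stood at 13.2 and 9.99 in beta-catenin, 3.59 and 2.95 in Grem1, 1.07 and 1.2 in Spry2, 0.60 and 0.68 in Sox2, and 6.4, 6.27 and 3.41 in Zic1-deltaC. Both beta-catenin libraries were above the other 9, and the Sox2 pair was the lowest. Its log2 difference was 2.01 in beta-catenin (SE 0.18, limma adjusted p = 2.16e-05), -1.65 in Sox2 (limma adjusted p = 4.35e-05), -1.18 in Spry2 (limma adjusted p = 0.00116) and 0.75 in Zic1-deltaC (limma adjusted p = 0.003). Even its beta-catenin level was below both GFP libraries (16.8 and 25).

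Member 19 (ENSGALG00000003172) reached 22.7 and 15.7 in beta-catenin and lay between 3.96 and 6.65 in the other 9 libraries of the 5 groups. The beta-catenin pair did not overlap with them, but overlapped with the GFP pair of 13.0 and 18.9. The log2 difference was 1.71 in beta-catenin (SE 0.12, limma adjusted p = 4.73e-06), -0.79 in Grem1 (limma adjusted p = 0.000654) and -0.59 in Sox2 (limma adjusted p = 0.0018). Member 8 was at 25.8 and 23.7 in beta-catenin and between 7.54 and 14.5 in the other 9, with a log2 difference of 1.28 (SE 0.09, limma adjusted p = 6.34e-06). Member 38 was at 4.72 and 4.09 in beta-catenin and between 1.15 and 3.24 elsewhere among the 5 groups (log2 difference 0.87, limma adjusted p = 0.000156). Members 8, 14, 19 and 38 were thus all higher in beta-catenin than in the other 4 groups. Members 8, 14 and 38 were also called lower in Spry2, the last not without Spry2 replicate 1 (limma adjusted p = 0.054), and members 14, 19 and 38 in Sox2.

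A second kind was high in Sox2 scales. Member 31 (ENSGALG00000011270) stood at 18.4 and 28.9 in Sox2, 12 and 12.3 in Spry2, 9.26, 12.3 and 13.8 in Zic1-deltaC, 5.98 and 2.57 in beta-catenin, and 2.49 and 2.86 in Grem1. Both Sox2 libraries were above all others of the series, the GFP pair of 11.2 and 6.99 included. The log2 difference was 1.70 in Sox2 (SE 0.23, limma adjusted p = 0.000191) and -1.70 in Grem1 (SE 0.23, limma adjusted p = 0.000444). In beta-catenin it was -1.14 (limma adjusted p = 0.0028), or -0.66 without beta-catenin replicate 2 (limma adjusted p = 0.0466).

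Member 6 was at 83.7 and 77.9 in Sox2, 46.5 and 53.9 in Spry2, between 38.8 and 43.7 in Zic1-deltaC, 35.9 and 23.8 in beta-catenin, and 25.2 and 27.3 in Grem1. Here too both Sox2 libraries were above every other library, and Grem1 and beta-catenin held the lowest levels of the 5 groups. The log2 difference was 1.16 in Sox2 (SE 0.12, limma adjusted p = 3.8e-05) and -0.82 in Grem1 (limma adjusted p = 0.00068). In beta-catenin it was -0.63 (limma adjusted p = 0.00202), or -0.35 without beta-catenin replicate 2. Member 2 shared the low pair of groups, at 53.6 and 53.3 in Grem1 and 63.8 and 50.1 in beta-catenin against 84.1 to 147 in the other 7 libraries. Its log2 difference was -0.79 in Grem1 (limma adjusted p = 0.00113), -0.69 in beta-catenin (limma adjusted p = 0.00174) and 0.73 in Zic1-deltaC (limma adjusted p = 0.000579).

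Claw keratins, beta-keratins named for the claw and abundant in control scales, give a contrast with members 6 and 31. Summed over their rows and scaled in the same way, they were at 31546 and 38869 in GFP and at 559 and 383 in Sox2, where members 6 and 31 were above GFP. In Spry2 they were at 1504 and 3789 while the 12 members kept a median of 66.3% of GFP replicate 2, with a range from 8.2% to 278%. In feather they were at 78.6 and 55.2, in RA at 14413 and 17932, and in Sox18 between 8267 and 9510. They were at 41595 and 28924 in beta-catenin, 16398 and 25007 in Grem1, and between 11198 and 15265 in Zic1-deltaC. Members 8, 14 and 38 were, like these keratins, highest in beta-catenin among the 5 groups and called lower in Spry2. Members 14 and 38, but not member 8, were also called lower in Sox2. The contrast thus concerns members 6 and 31 and not the members as a set.

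Members 27 and 40 were highest in Zic1-deltaC scales among the 5 groups. Member 27 was at 16.1, 17.1 and 21 there, at 12.7 and 11.5 in Spry2, between 7.42 and 8.66 in beta-catenin and Grem1, and at 5.03 and 5.6 in Sox2. All Zic1-deltaC libraries were above the rest of the series, and the Sox2 pair was near the RA pair of 5.24 and 5.40. The log2 difference was 1.07 in Zic1-deltaC (SE 0.08, limma adjusted p = 1.16e-05) and -0.92 in Sox2 (SE 0.10, limma adjusted p = 3.56e-05). Member 40 was at 5.62, 6.07 and 5.26 in Zic1-deltaC, below GFP (7.01 and 6.71), and between 2.30 and 4.24 in the other 8 libraries. Its log2 difference was 0.61 in Zic1-deltaC (limma adjusted p = 0.000152) and -0.47 in Grem1 (limma adjusted p = 0.00191).

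Members 30 and 34 went beyond the control scale. Member 30 was at 28.9 and 34.7 in Grem1, 30.8 and 29.2 in Spry2, 30.9 and 18.7 in Sox2, 17.0, 15.7 and 16.1 in Zic1-deltaC, and 9.93 and 13.1 in beta-catenin. Its mean was above GFP in all 5 groups, and only beta-catenin overlapped with the GFP pair of 8.89 and 10.2. The log2 difference in beta-catenin against the other 4 was -1.05 (SE 0.15, limma adjusted p = 0.000435). It was also called higher in Grem1 and Spry2 and lower in Zic1-deltaC, calls that ended when 1 library was left out (limma adjusted p = 0.0692 without Grem1 replicate 2 and 0.112 without Spry2 replicate 1, and above 0.05 also without Spry2 replicate 2 or Zic1-deltaC replicate 2 or 3).

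Member 34 (ENSGALG00000021716) split the groups into a high and a low set. It was at 23.7 and 28.8 in beta-catenin, 25 and 27.6 in Grem1, and 23.3 and 22.4 in Spry2. It was at 6.56 and 5.43 in Sox2 and at 5.42, 3.23 and 6.09 in Zic1-deltaC, near the GFP pair of 9.43 and 6.15. The log2 difference was -1.70 in Zic1-deltaC (SE 0.14, limma adjusted p = 1.66e-05), -1.36 in Sox2 (limma adjusted p = 8e-05), 1.10 in Grem1 (limma adjusted p = 0.000655) and 1.09 in beta-catenin (limma adjusted p = 0.000453). The beta-catenin, Grem1 and Spry2 libraries also stand apart by 25 rows at 1 RPKM or more in all 6 of them and at 0 in the other 14 libraries, 0 of which are members. The part of that difference between libraries in the levels of member 34 was not tested. The same split runs through each of the 5 contrasts, where it is mixed in part with the construct for every other member too.

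**Figure D5:**
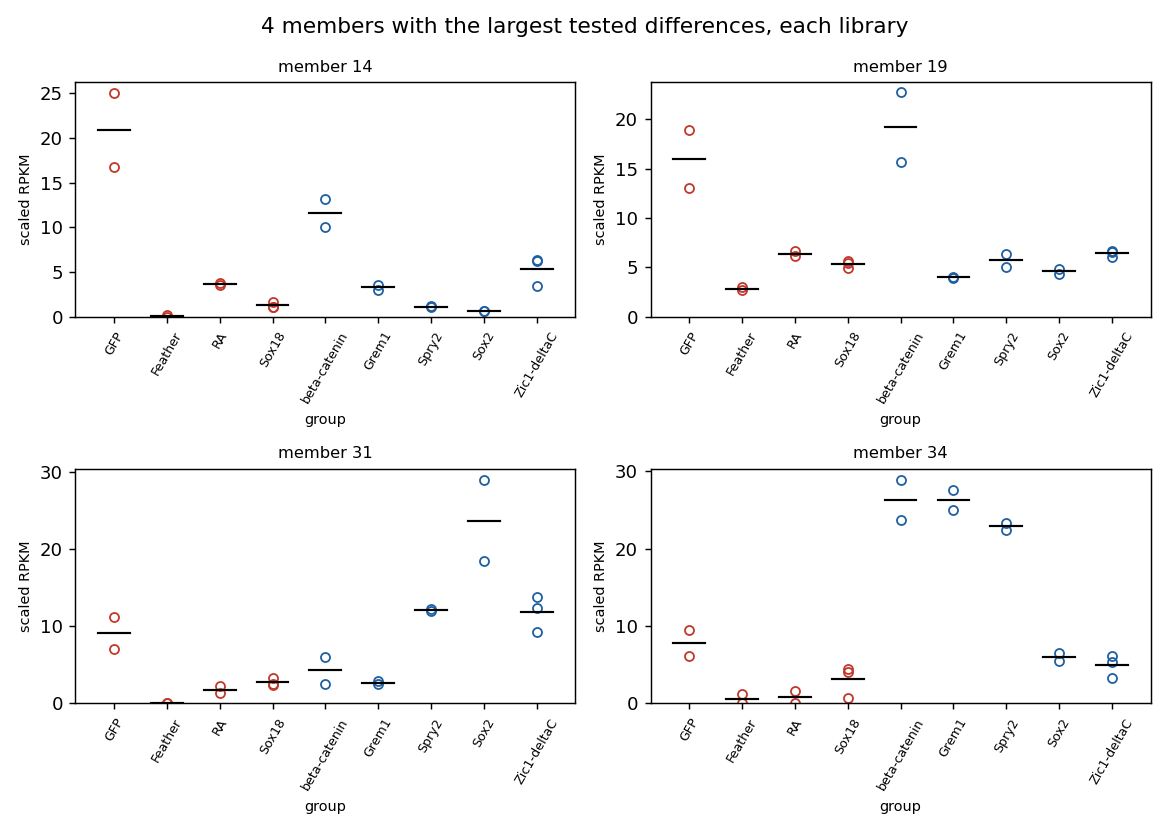
Scaled RPKM (y axis, linear from 0) of members 14, 19, 31 and 34 in every library, by group, with circles for libraries and bars for group means. Red groups were used by the rule and blue ones were not. Members 14 and 19 peak in beta-catenin among the blue groups, member 31 in Sox2, and member 34 is above 22 in beta-catenin, Grem1 and Spry2.

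Of the other members outside the 24, member 17 was at 12.3 and 12.8 in Grem1 and 2.60 and 2.19 in beta-catenin (log2 difference 1.11 in Grem1, limma adjusted p = 0.000981, and -1.40 in beta-catenin, limma adjusted p = 0.000182). Member 25 was at 12.8 and 8.95 in Spry2 and between 2.64 and 9.5 in the other 9, so that the groups overlapped (log2 difference 1.16, limma adjusted p = 0.00281, and 0.0467 without Spry2 replicate 1). Members 20 and 21 had their lowest means of the 5 groups in beta-catenin, at 4.05 and 6.57 and at 2.70 and 4.76, calls that ended without beta-catenin replicate 1 (limma adjusted p = 0.119 and 0.0931). Members 36, 41 and 43 had only calls that at least 1 alternative ended.

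Members 5, 13 and 35 were kept at more than 1/2 of GFP in all 5 groups, as were members 6, 30 and 34. Member 13 lay between 16.6 and 36.3 over the 11 libraries, around its GFP pair of 20.8 and 28.1, and was called lower in Zic1-deltaC (log2 difference -0.48, limma adjusted p = 0.00933), a call lost without Zic1-deltaC replicate 3. Member 5 lay between 24.4 and 55.0 and member 35 between 3.24 and 8.88. Their lower calls in Sox2 ended without Sox2 replicate 1 (limma adjusted p = 0.0564 and 0.356). In feather member 35 was listed at 0 in both libraries and members 5 and 13 were below 1. The lower levels in feather, RA and Sox18 are what the rule asked for. In Sox2 replicate 1 member 5 was at 24.4, beside 24.5 and 25.2 in RA, and member 35 at 3.24, beside 3.38 and 2.76 in RA. For these members the cut at 1/2 of GFP thus parted close levels, while member 13 was above its RA pair of 10.5 and 9.36 in all 11 libraries.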

How the data were processed

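The authors deposited RPKM per gene and library to 1 decimal, and the submitters' processing notes name TopHat2, Partek and the galGal4 build. Other settings are not known here. RPKM is relative to the library total, read totals are not given, and depth is unknown, so no interval for counting error is given. The table of all genes was used (16290 rows, 180 of them keratins), and the separate keratin table was not used.

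Each library was divided by its sum over rows with Ensembl identifiers (192285 to 357139 RPKM) and multiplied by the mean of those sums. Members were found by the rule and numbered by GFP mean; no identifier could be named, so 4 are printed, the 2 largest called differences in each direction. A limma model with trend was fitted to log2(scaled RPKM + 1) in 11 libraries of 5 groups (6 residual degrees of freedom, median prior 3.64), for rows that reached 1 RPKM in 2 or more of the 20 libraries, with Benjamini-Hochberg adjustment and a threshold of 0.05. Contrasts set each group against the mean of the other 4. Replicate numbers were not used as pairs. In simulated data for Sox2 against the mean of the other 4 (11863 genes), 66 of 67 planted log2 changes of 0.5 and 67 of 67 of 1 were recovered, with 7 false calls. Changes were planted in few rows, none of low mean level, with independent normal noise. In the real data 85.8% of rows were called, so these rates do not carry over to members at low levels or to the counts of calls. The members, lists and alternatives were chosen with earlier results of these data known; lists of named genes could not be matched and were not used. R 4.3.3, limma 3.58.1, Python 3.11.15, numpy 2.4.6, pandas 2.3.3 and matplotlib 3.10.9 were used.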

Additional observations from a re-analysis of the deposited data

How the results depend on the processing

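The choice of members depended most on GFP replicate 1. The count of 45 became 16 without it (12 shared) and 76 without GFP replicate 2 (41 shared), and 8 where each GFP library alone had to meet it. It became 104 with RPKM as deposited, 29 with a minimum of 10, 158 with folds of 3 and 1.5, and 23 with folds of 6 and 3. Leaving out any library of feather, RA or Sox18 gave 42 to 49.

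Members at 1/2 of GFP or less numbered 1 (beta-catenin), 5 (Grem1), 2 (Spry2), 3 (Sox2) and 2 (Zic1-deltaC) among the 8 members that meet the rule with each GFP library alone, and 2, 7, 4, 6 and 5 among the 12 with GFP replicate 2 as control, an alternative chosen after the data were seen. Leaving out 1 library, the counts over 45 ran from 4 to 33 in beta-catenin, 9 to 36 in Grem1, 4 to 31 in Spry2, 8 to 37 in Sox2 and 5 to 31 in Zic1-deltaC. The lowest count of each group was the one without GFP replicate 1, where most of the 24 were near the floor of the control.

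Calls of any difference among the 5 groups (28) became 18 with a filter at a mean of 5 RPKM, which left fewer members in the fit. All 50 called differences of the 21 members outside the 24 that could still be tested there kept their call. Among the 8 members that meet the rule with each GFP library alone, 8 were called. In the same 8 members higher and lower calls were 2 and 5 in beta-catenin, 1 and 5 in Grem1, 2 and 3 in Spry2, 2 and 2 in Sox2, and 4 and 2 in Zic1-deltaC, beside 14.2% and 37.3%, 13.6% and 33.8%, 18.0% and 13.5%, 44.7% and 17.5%, and 31.6% and 19.4% of all rows. With the filter at 5 RPKM lower calls became 8 in Grem1 and 3 in Spry2, and higher calls 3 in Sox2 and 7 in Zic1-deltaC. With all 20 libraries fitted, higher calls became 5 in beta-catenin, 4 in Spry2, 3 in Sox2 and 6 in Zic1-deltaC, and lower calls 8 in Grem1. The shares of all rows called with the filter at 5 RPKM and in the fit of all 20 libraries were not counted. Where the members were chosen without a GFP library or 1 library of the 5 groups was left out, counts ran from 14 to 47 for any difference. The 14 were of the 16 rows chosen without GFP replicate 1, and the 47 of the 76 chosen without GFP replicate 2, beside 85.8% of all rows tested. The 76 also gave every upper end below, apart from higher calls in Grem1. These sets are not of the size of the 45, so the ranges in part follow the number of rows in the set. Higher and lower calls then ran from 6 to 9 and 5 to 19 in beta-catenin, 3 to 6 and 7 to 24 in Grem1, 3 to 14 and 4 to 9 in Spry2, 2 to 13 and 5 to 15 in Sox2, and 4 to 24 and 3 to 11 in Zic1-deltaC. With a replicate block lower calls in Zic1-deltaC became 3. Same-numbered libraries share only a number: their deviations from group means correlated between -0.28 and 0.14 over 20 pairs, 4 of them above 0.1. In groups of 2 libraries the deviations mirror each other, so several pairs repeat 1 value and are not independent.

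Of 63 called differences of the 21 members outside the 24, 33 kept their call under all alternatives in which they could be tested. Another 30 lost it under at least 1, and 0 changed sign. With the filter at a mean of 5 RPKM only 50 of the 63 could be tested. The 50 tested with that filter kept their call, while 8 calls were lost without a filter, 10 with all 20 libraries fitted and 7 with median-ratio scaling. The cause of these losses was not tested.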

Other observations

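The 24 members of GFP replicate 1 had traces in other libraries that differed between replicates of the same group. In beta-catenin replicate 1 all 24 were listed above 0, while 10 were listed at 0 in beta-catenin replicate 2. As deposited, 20 of the 24 were higher in beta-catenin replicate 1 than in replicate 2 and 2 were lower. Spry2 replicate 1 was above replicate 2 for 15 and below for 3, and Grem1 replicate 1 was above replicate 2 for 8 and below for 5. Among all 88 rows that stood out in GFP replicate 1, beta-catenin replicate 1 was above replicate 2 for 35 and below for 12. The split over all rows was not counted, so these counts have no background beside them. The median of the 24 was 0.675 in beta-catenin replicate 1 and 0.095 in replicate 2, close to the floor of values deposited to 1 decimal. Member 12 was at 2.70 and 0.29 in the beta-catenin pair, and member 39 at 0.87 and 0. These genes carry no names here, so no cell type was assigned, and no cause was tested.

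The rule without GFP replicate 1 also took in 4 rows that are not members. The most abundant of them stood at 13.5 and 19 in GFP, 4.09 and 2.70 in feather, 8.04 and 7.80 in RA, and 5.90 to 7.26 in Sox18. It was at 16.7 and 18.6 in beta-catenin and between 7.72 and 13.4 in the other 9 libraries of the 5 groups, so that it too was highest in beta-catenin among them. It was chosen after its values were seen.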
